A study of Mus musculus with 9 samples.

Results

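The receptors described here are the CD94/NKG2 lectin receptors and KLRG1 of natural killer (NK) cells, encoded by Klrc1, Klrc2, Klrc3, Klrk1, Klrd1 and Klrg1. All probe sets that the platform annotation assigns to these 6 genes were taken, which gave 8 probe sets of 45101 on the array, on an array that covers 18193 genes with probe sets of 1 symbol. Each is reported separately, because the Klrc genes are close paralogs and can share probes. RNA was measured with Affymetrix arrays in sorted NK cells from the bone marrow of NKDxIL15tg mice, from the spleen of NKDxIL15tg mice and from the spleen of IL15tg mice, with 3 biological replicates in each of the 3 groups. The series' design text calls the NKDxIL15tg cells immature and the IL15tg cells mature. All 3 groups carry the IL15tg transgene, which overproduces interleukin 15, a cytokine that NK cells need to survive, so no group shows the receptors at a normal supply of it. Only the NKDxIL15tg mice also carry the NKD transgene, of a line with few mature NK cells, so an effect of the NKD genotype and one of maturity cannot be told apart. The age of the mice, any pooling of animals, the promoters of the transgenes and the antibodies used in the sort are not given in the sources used here.

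NK cells read the surface of other cells through paired receptors. CD94, from Klrd1, joins an NKG2 chain to recognise the MHC class Ib molecule Qa-1b: NKG2A, from Klrc1, carries inhibitory motifs, whereas NKG2C and NKG2E, from Klrc2 and Klrc3, lack them and activate through the adaptor DAP12. NKG2D, from Klrk1, does not pair with CD94. It forms a homodimer, signals through the adaptors DAP10 and DAP12 and binds stress-induced ligands such as RAE-1, H60 and MULT1. KLRG1 is an inhibitory receptor for cadherins that appears late in NK cell maturation and on effector T cells.

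All 6 genes lie on mouse chromosome 6. In the RefSeq gene table of GRCm38.p6, Klrd1, Klrk1, Klrc3, Klrc2 and Klrc1 follow each other in this order with 0 protein-coding genes between neighbours, inside the NK gene complex. Klrg1 lies apart, with 133 protein-coding genes between it and Klrd1. Promoters of 4 of the 6 genes are in the RefSeq promoter table of GRCm38.p6, those of Klrc1, Klrc2, Klrc3 and Klrk1. They are shown because these genes were low together in the NKDxIL15tg cells and because Klrc2 and Klrc3 are hard to tell apart. Each sequence runs from 250 bases before to 50 bases after the gene's start, and all 4 genes are on the minus strand, at chr6:129678924-129679223, chr6:129660507-129660806, chr6:129643239-129643538 and chr6:129623815-129624114 in the order below. Capitals mark TGTGGT, the core motif of RUNX factors, on either strand, where it reads ACCACA on the other strand.
Klrc1: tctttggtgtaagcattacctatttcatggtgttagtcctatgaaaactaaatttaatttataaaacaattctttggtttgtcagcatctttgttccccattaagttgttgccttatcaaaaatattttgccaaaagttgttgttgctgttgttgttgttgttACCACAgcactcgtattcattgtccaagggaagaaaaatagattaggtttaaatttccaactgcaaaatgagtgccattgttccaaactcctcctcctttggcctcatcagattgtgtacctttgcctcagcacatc
Klrc2: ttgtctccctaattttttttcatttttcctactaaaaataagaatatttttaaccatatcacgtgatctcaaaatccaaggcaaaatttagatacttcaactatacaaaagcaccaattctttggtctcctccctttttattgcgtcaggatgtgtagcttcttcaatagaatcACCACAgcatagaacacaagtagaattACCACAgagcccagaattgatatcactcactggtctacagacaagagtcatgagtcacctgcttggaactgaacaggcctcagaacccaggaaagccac
Klrc3: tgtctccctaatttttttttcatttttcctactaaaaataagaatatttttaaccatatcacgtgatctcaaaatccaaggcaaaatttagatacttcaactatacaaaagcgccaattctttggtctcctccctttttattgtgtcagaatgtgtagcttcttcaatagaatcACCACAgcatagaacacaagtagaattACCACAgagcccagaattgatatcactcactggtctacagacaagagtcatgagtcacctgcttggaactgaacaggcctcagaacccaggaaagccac
Klrk1: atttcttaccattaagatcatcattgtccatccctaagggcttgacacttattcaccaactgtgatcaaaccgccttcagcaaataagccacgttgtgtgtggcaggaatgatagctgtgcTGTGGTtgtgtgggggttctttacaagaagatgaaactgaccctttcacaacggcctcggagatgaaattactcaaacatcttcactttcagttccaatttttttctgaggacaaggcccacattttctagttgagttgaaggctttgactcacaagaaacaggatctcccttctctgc

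The promoters of Klrc3 and Klrc2 were identical at 296 of 299 aligned bases (99.0%), with 2 gap bases. Klrc2 has a second listed start 40 bases upstream, whose window is not shown. The RUNX motif stood once in the Klrc1 promoter, once in the Klrk1 promoter and 2 times each in those of Klrc2 and Klrc3, where both copies keep the same place, at -76 and -49 from the gene's start. Of all 32851 promoters in the table, 16.8% hold this motif on either strand. The E-box CACGTG, which reads the same on both strands, stood once in Klrc2 and once in Klrc3, against 7.15% of all promoters. The T-box motif AGGTGT (13.7% of all promoters), the cyclic AMP response core TGACGT (7.51%) and the ETS motif CCGGAA (14.9%) had 0 matches in the 4 windows. No marked motif overlaps another. The motifs were picked with the sequences in view, the Klrc2 and Klrc3 windows are near copies, and a match is a description of letters only.

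Values are linear intensities as deposited by the authors, on 9 arrays. Bone marrow replicate 3 of the NKDxIL15tg mice stood apart, with a median intensity of 64.9 against 56.6 to 59.1 elsewhere and an array weight of 0.18 in limma against 0.68 to 2.34, so results that rest on it are also given without it. The 10 defining NK cell genes with a probe set all passed the filter on dim probe sets, and their summed intensity was 23416 to 26252 in NKDxIL15tg bone marrow, 28084 to 33703 in NKDxIL15tg spleen and 31216 to 33666 in IL15tg spleen. The summed intensity of 17 granulocyte and monocyte genes was 12977 to 34836, 3945 to 9126 and 1617 to 1948 in the same order of groups, and that of 10 erythroid genes 5423 to 7545, 7535 to 8065 and 1861 to 1996. Car2, which encodes a carbonic anhydrase, made most of the erythroid sum, and without it the sums were 611 to 1082, 716 to 914 and 486 to 549. Fewer cells of a type and less RNA per cell cannot be told apart in such bulk samples, and the part of other cells in the results below was not tested.

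All 8 probe sets were lower in NKDxIL15tg spleen than in IL15tg spleen with no overlap between the groups, a pattern that 15.5% of all probe sets showed. The same held for NKDxIL15tg bone marrow against IL15tg spleen, where 15.4% of all probe sets showed it. Both comparisons share the IL15tg arrays. Between NKDxIL15tg bone marrow and NKDxIL15tg spleen the groups overlapped for all 8 probe sets, where 5.32% of all probe sets were lower in bone marrow with no overlap.

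**Figure D1:**
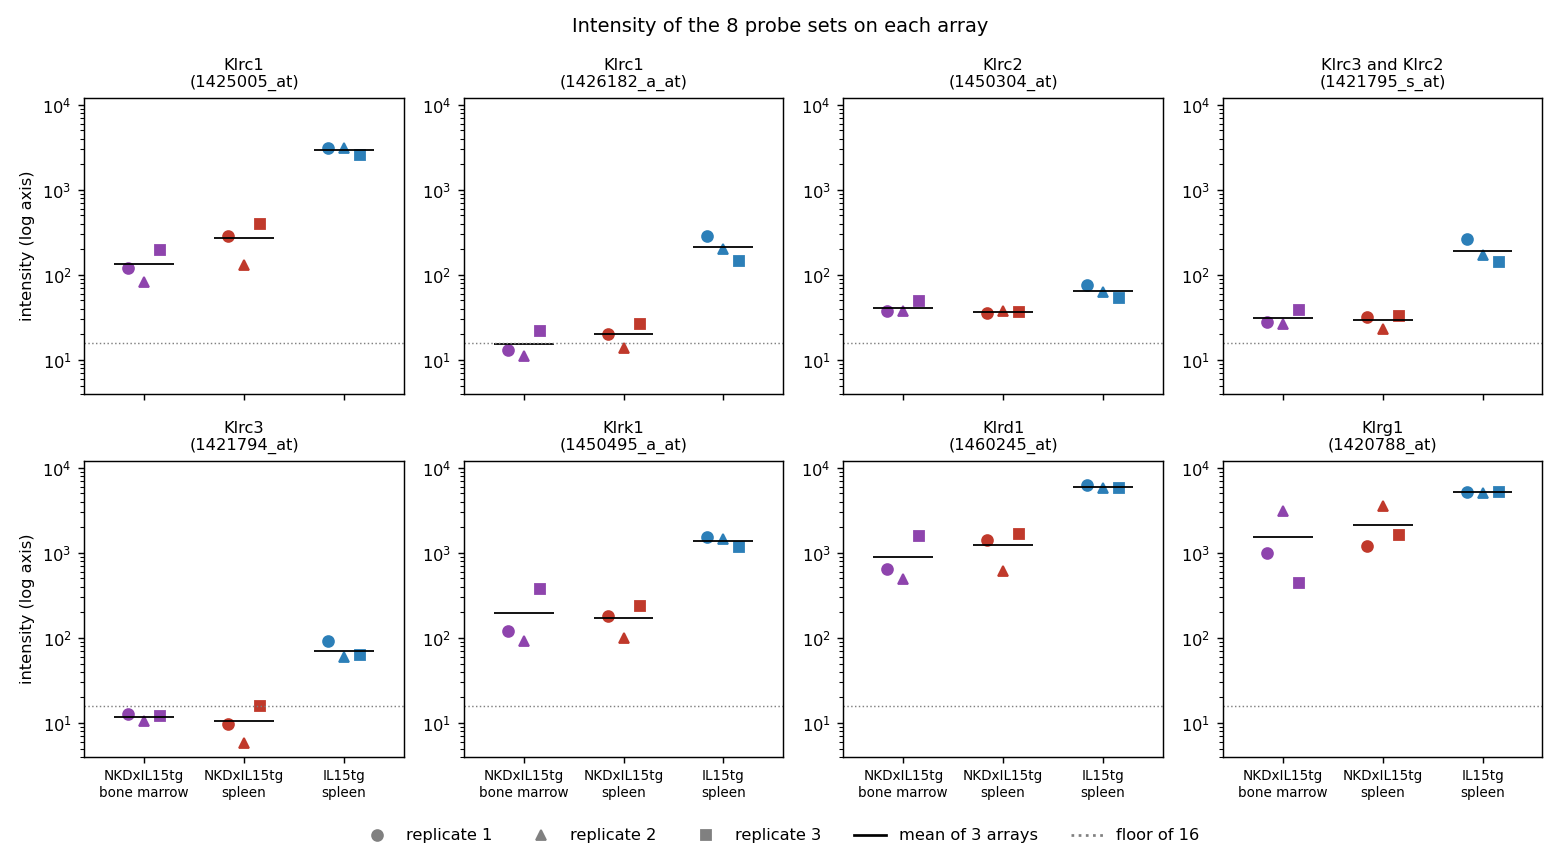
Intensity (log axis) of the 8 probe sets on each of the 9 arrays, by group, with the replicate number as the symbol, the mean of 3 arrays as a bar and the floor of 16 as a dotted line. In each panel the 3 IL15tg arrays lie above all 6 NKDxIL15tg arrays, narrowly for Klrc2, and Klrg1 is the one of the 4 brightest genes with replicate 2 at the top of both NKDxIL15tg groups.

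Klrc1, the inhibitory partner of CD94, was among the most lowered genes of the array. Its bright probe set 1425005_at read 119, 82.7 and 196 in NKDxIL15tg bone marrow replicates 1 to 3, 286, 129 and 396 in NKDxIL15tg spleen and 3129, 3087 and 2569 in IL15tg spleen. The lowest IL15tg array was 6.48 times the highest NKDxIL15tg array, and the NKDxIL15tg groups overlapped. In limma the level fell by 3.58 ± 0.41 on the log2 scale (standard error, n = 3 arrays per group) in NKDxIL15tg spleen against IL15tg spleen, an 11.9-fold reduction (adjusted p = 0.000833), which ranked 6th from the most lowered of 27022 tested probe sets. In NKDxIL15tg bone marrow against IL15tg spleen it fell by 4.55 ± 0.41, or 23.4-fold (adjusted p = 0.000172), again at rank 6. Bone marrow against spleen of NKDxIL15tg mice did not pass, at -0.97 ± 0.41 (95% interval -1.91 to -0.04, adjusted p = 0.473). Without bone marrow replicate 3 it was -1.30 ± 0.38 and did not pass (adjusted p = 0.425).

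A second Klrc1 probe set, 1426182_a_at, was dimmer, at 13.2, 11.02 and 21.7 in NKDxIL15tg bone marrow, 20.1, 13.8 and 26.6 in NKDxIL15tg spleen and 289, 203 and 145 in IL15tg spleen. It lay below the filter on dim probe sets (a mean log2 intensity of 5.58 over the 9 arrays) and was tested in the fit without a filter. There it fell by 3.32 ± 0.29 in NKDxIL15tg spleen (adjusted p = 0.000900) and fell by 3.53 ± 0.29 in bone marrow (adjusted p = 0.000608) against IL15tg spleen. As 1 of 3 NKDxIL15tg spleen arrays and 2 of 3 bone marrow arrays lay under the floor of 16, these sizes depend on the floor. Both Klrc1 probe sets thus fell in both comparisons.

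Klrc2 and Klrc3, the activating partners of CD94, read under 50 in all 6 NKDxIL15tg arrays with each of their 3 probe sets. The probe set that the annotation gives to both genes, 1421795_s_at, read 27.9, 26.1 and 38.7 in NKDxIL15tg bone marrow, 31.8, 23.1 and 32.7 in NKDxIL15tg spleen and 267, 169 and 141 in IL15tg spleen. It fell by 2.69 ± 0.26 in NKDxIL15tg spleen (6.44-fold, adjusted p = 0.000275) and fell by 2.61 ± 0.26 in NKDxIL15tg bone marrow (6.10-fold, adjusted p = 0.000258) against IL15tg spleen. The 2 NKDxIL15tg groups differed by 0.08 ± 0.26 (95% interval -0.50 to 0.66, adjusted p = 0.913). With a floor of 64, which lies above all 6 NKDxIL15tg values, the change was -1.54 in both comparisons with IL15tg spleen and still passed. Which of the 2 genes gave this signal cannot be read from a shared probe set.

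The probe set of Klrc3 alone, 1421794_at, read 12.7, 10.5 and 12.1 in NKDxIL15tg bone marrow, 9.81, 5.83 and 15.7 in NKDxIL15tg spleen and 90.7, 59.5 and 62.6 in IL15tg spleen. All 6 NKDxIL15tg arrays lay under the floor of 16, so the IL15tg mean of 70.9 ± 17.2 (SD, n = 3) was at least 4.43-fold higher than a level at that floor. The fit without a filter called it lower in NKDxIL15tg spleen (adjusted p = 0.000370) and in bone marrow (adjusted p = 0.000303). The probe set of Klrc2 alone, 1450304_at, showed the smallest difference of the 8, at 37.3, 37.7 and 48.6 in NKDxIL15tg bone marrow, 35.3, 37.7 and 37.0 in NKDxIL15tg spleen and 76.2, 63.6 and 53.8 in IL15tg spleen. The lowest IL15tg array exceeded the highest NKDxIL15tg array by a factor of 1.11. Klrc2 also lay below the filter. Without a filter its level fell by 0.80 ± 0.15 in NKDxIL15tg spleen (adjusted p = 0.0201) and fell by 0.64 ± 0.15 in bone marrow (adjusted p = 0.0309) against IL15tg spleen.

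Klrk1, which encodes NKG2D, had 1 probe set, 1450495_a_at, with 122, 91.2 and 374 in NKDxIL15tg bone marrow, 179, 98.6 and 240 in NKDxIL15tg spleen and 1514, 1453 and 1184 in IL15tg spleen. The IL15tg arrays lay at least 3.17 times above every NKDxIL15tg array. The level fell by 3.09 ± 0.50 in NKDxIL15tg spleen (8.50-fold, adjusted p = 0.00443) and fell by 3.10 ± 0.50 in NKDxIL15tg bone marrow (8.56-fold, adjusted p = 0.00298) against IL15tg spleen. Bone marrow replicate 3 was the highest of the 6 NKDxIL15tg arrays, and without it the bone marrow change was -3.71 ± 0.31 (adjusted p = 5.83e-05). The same array read over 1.5 times the higher of the other 2 bone marrow arrays in 10 of 15 tested granulocyte and monocyte genes, 3 of 10 T cell genes and 1 of 9 B cell genes, a pattern that 15% of all tested probe sets showed. In the list of lectin genes 2 of 11 showed it (Klre1 and Klra8), and of the defining NK cell genes 0 of 10. Klrc1 (196 against 119 and 82.7) and Klrd1 (1559 against 640 and 494) were also highest on this bone marrow array. The part of granulocytes, monocytes, T cells or B cells in the Klrk1 level was not tested. Bone marrow against spleen of NKDxIL15tg mice did not pass (-0.01 ± 0.50, 95% interval -1.13 to 1.11, adjusted p = 0.995). This size rested on bone marrow replicate 3: without it the change was -0.62 ± 0.31, which did not pass either (adjusted p = 0.633).

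Klrd1, which encodes CD94, was bright in all arrays. Its probe set 1460245_at read 640, 494 and 1559 in NKDxIL15tg bone marrow, 1405, 607 and 1682 in NKDxIL15tg spleen and 6223, 5807 and 5792 in IL15tg spleen. The lowest IL15tg array was 3.44 times the highest NKDxIL15tg array. The level fell by 2.40 ± 0.46 in NKDxIL15tg spleen (5.26-fold, adjusted p = 0.0102) and fell by 2.91 ± 0.46 in NKDxIL15tg bone marrow (7.51-fold, adjusted p = 0.00274) against IL15tg spleen, with -3.40 ± 0.35 in bone marrow without replicate 3. Bone marrow against spleen did not pass (-0.51 ± 0.46, 95% interval -1.55 to 0.52, adjusted p = 0.620).

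Klrg1, the inhibitory receptor for cadherins, was bright in all groups and spread widely within the NKDxIL15tg groups. Its probe set 1420788_at read 995, 3105 and 442 in NKDxIL15tg bone marrow, 1209, 3569 and 1633 in NKDxIL15tg spleen and 5224, 5039 and 5211 in IL15tg spleen. The highest array was 7.02 times the lowest in NKDxIL15tg bone marrow, 2.95 times in NKDxIL15tg spleen and 1.04 times in IL15tg spleen. In NKDxIL15tg spleen this was close to Klrc1 (3.07 times) and Klrd1 (2.77 times). In NKDxIL15tg spleen against IL15tg spleen the change was -1.43 ± 0.63 and did not pass (95% interval -2.86 to 0.0004, adjusted p = 0.180), although the 3 arrays of each group did not overlap. It passed when bone marrow replicate 3 was left out of the common estimate of the spread (adjusted p = 0.0461). In NKDxIL15tg bone marrow against IL15tg spleen Klrg1 fell by 2.22 ± 0.63, or 4.65-fold (adjusted p = 0.0363). This call was lost without any one of IL15tg replicates 1 to 3 (adjusted p = 0.0926 to 0.105), NKDxIL15tg spleen replicate 3 (0.0529) or bone marrow replicate 1 (0.0806). The size was -1.55 without bone marrow replicate 3 and -2.96 without bone marrow replicate 2. Klrg1 did not pass in bone marrow against spleen of NKDxIL15tg mice (-0.79 ± 0.63, 95% interval -2.22 to 0.64, adjusted p = 0.578). Leaving out bone marrow replicate 3 gave -0.13 ± 0.49 there (adjusted p = 0.963).

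Of the 5 probe sets bright enough for the main test, 4 were called lower in NKDxIL15tg spleen against IL15tg spleen, where 7.04% of tested probe sets were called lower. In NKDxIL15tg bone marrow against IL15tg spleen 5 of 5 were called lower, against 11.5% of tested probe sets. Of these 5, the shared Klrc3 and Klrc2 probe set lay below the filter on all 6 NKDxIL15tg arrays and passed it through its IL15tg level, so it had to differ; the other 4 lay above it on every array. In the fit without a filter, which takes all 8, 7 were called lower in each of these comparisons, against 4.28% and 7.01% of all probe sets, and Klrg1 was the exception in both. The median change of the 8 was -2.54 in NKDxIL15tg spleen and -2.76 in bone marrow against IL15tg spleen, with -0.01 and 0.06 over all probe sets. Without NKDxIL15tg bone marrow replicate 3, 5 of 5 were called lower in each of these comparisons. Calls over all 27022 tested probe sets, in either direction, then rose from 3725 to 5483 in spleen and from 5764 to 6342 in bone marrow. Klrc1 was then at -4.88 and the shared Klrc3 and Klrc2 probe set at -2.78 in bone marrow against IL15tg spleen. Between NKDxIL15tg bone marrow and spleen 0 of 5 were called, where 0.0518% of tested probe sets were called in limma (14, or 23 with the replicate number as a block). Before adjustment, Klrc1 alone of the 5 lay below 0.05 there in limma.

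**Figure D2:**
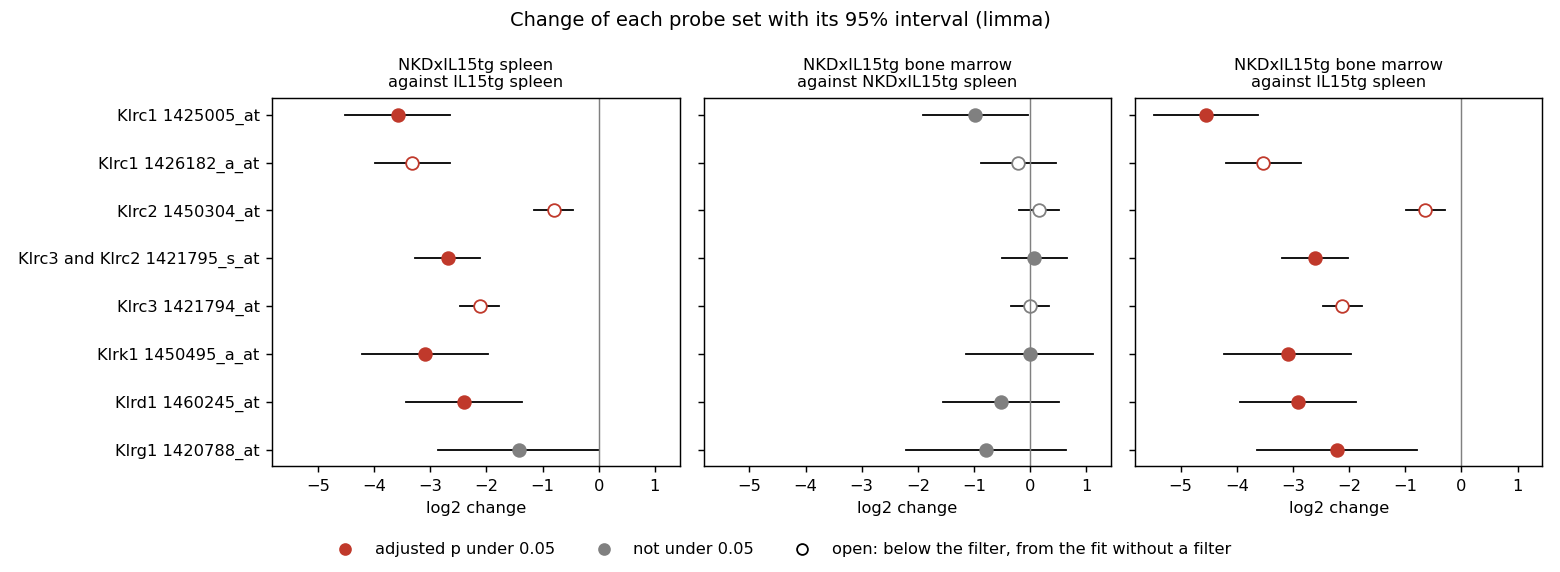
Log2 change of each probe set in the 3 comparisons, with the 95% interval from limma as a line. Red points passed (adjusted p under 0.05), grey points did not, and open points lie below the filter and come from the fit without it. Klrc1 has the largest reduction in both comparisons with IL15tg spleen, and all points of bone marrow against spleen of NKDxIL15tg mice are grey.

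The size of the reduction was also compared between receptors within arrays. In each array, the log2 ratio of Klrc1 to Klrd1 was taken relative to its mean in IL15tg spleen. It was -1.97 to -1.40 in NKDxIL15tg bone marrow, -1.27 to -1.06 in NKDxIL15tg spleen and -0.15 to 0.11 in IL15tg spleen, so Klrc1 was low relative to Klrd1 on all 6 NKDxIL15tg arrays and the 3 groups did not overlap. The ratio of Klrc1 to Klrk1 was -2.02 to -1.11, -0.70 to -0.36 and -0.04 to 0.03 in the same order of groups, also with no overlap. The ratio of Klrk1 to Klrd1 was -0.33 to 0.05 in bone marrow, -0.86 to -0.51 in NKDxIL15tg spleen and -0.18 to 0.11 in IL15tg spleen, so the ratio was separate from IL15tg spleen in NKDxIL15tg spleen only and overlapped in bone marrow. With 3 arrays against 3, an exact permutation test (2-sided) cannot go below p = 0.1. Of 18 such exact permutation tests on 6 ratios, 11 reached that smallest value, each with p = 0.164 after Benjamini-Hochberg adjustment.

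The NKDxIL15tg arrays varied in a shared way. Replicate 2 was the lowest of its group for Klrc1 (1425005_at), the shared Klrc3 and Klrc2 probe set, Klrk1 and Klrd1, in both bone marrow and spleen, a pattern that 17.2% of tested probe sets showed. Klrg1 did the opposite and was highest in replicate 2 of both groups, as were 11.4% of tested probe sets. For Klrd1, replicate 2 lay 1.02 below the mean of the other 2 arrays on the log2 scale in bone marrow (-1.02) and 1.34 below it in spleen (-1.34). For Klrg1 it lay 2.23 above in bone marrow and 1.35 above in spleen. The IL15tg arrays did not vary to this extent in either gene, with the highest array 1.07 times the lowest for Klrd1 and 1.04 times for Klrg1.

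Some genes of T cells were, like Klrg1, highest in replicate 2 of both NKDxIL15tg groups, and others were lowest there. Cd3g, a chain of the T cell receptor complex, read 95.6, 251 and 113 in NKDxIL15tg bone marrow replicates 1 to 3, 72.6, 458 and 60.1 in NKDxIL15tg spleen and 92.1, 88.1 and 122 in IL15tg spleen. Cd3d, another chain, read 316, 608 and 346 in bone marrow, 191, 651 and 321 in NKDxIL15tg spleen and 234, 249 and 332 in IL15tg spleen. Cd3e was not highest in replicate 2 of either NKDxIL15tg group, at 67.8, 47.0 and 87.8 in bone marrow, 85.9, 54.4 and 41.0 in NKDxIL15tg spleen and 52.9, 51.3 and 64.02 in IL15tg spleen. Of the 10 tested T cell genes, 2 were highest in replicate 2 of both NKDxIL15tg groups and 4 were lowest there. Over all tested probe sets the shares were 11.4% and 17.2%. The 12 T cell genes with a probe set summed to 2946, 3020 and 3816 in bone marrow, 3291, 3580 and 3175 in NKDxIL15tg spleen and 1722, 1853 and 1879 in IL15tg spleen. Without Cd28 the sums were 1579 to 2141, 1434 to 2185 and 1335 to 1536 in the same order of groups. Gzmb, a defining NK cell gene that encodes the protease granzyme B, was also highest in replicate 2, with 1688, 4623 and 3024 in bone marrow and 3706, 7251 and 5011 in NKDxIL15tg spleen. Of the 10 tested defining NK cell genes, 4 were highest in replicate 2 of both NKDxIL15tg groups, Gzmb among them, and 1 was lowest. The part of T cells in the Klrg1 level was not tested.

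**Figure D3:**
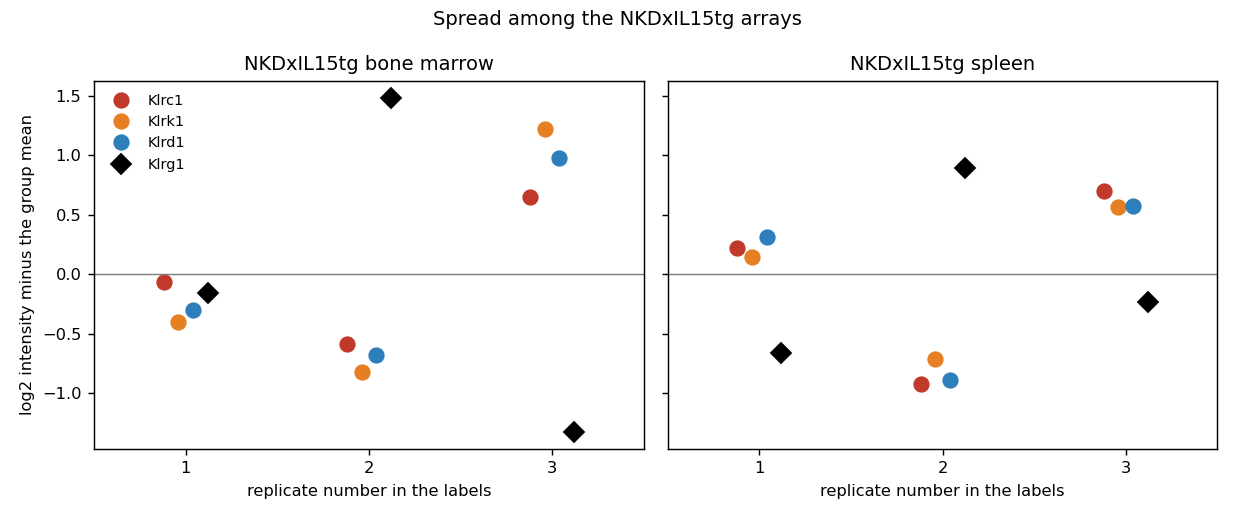
Log2 intensity of Klrc1 (1425005_at), Klrk1, Klrd1 and Klrg1 on each NKDxIL15tg array, minus the mean of its group, by replicate number. Klrc1, Klrk1 and Klrd1 lie together and are lowest in replicate 2 of both groups, where Klrg1 is highest.

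Likeness of pattern was measured by Pearson's r of log2 intensity over the 9 arrays, which share their groups. Among members, Klrd1 and Klrk1 had r = 0.984, Klrd1 and Klrc1 r = 0.982 and Klrk1 and Klrc1 r = 0.964, while Klrg1 had r = 0.603 with Klrc1, 0.462 with Klrd1 and 0.451 with Klrk1. The gene most like Klrd1 was Klre1, the lectin receptor gene next to it on chromosome 6 (r = 0.996), followed by Cd2ap (0.990) and Ifi213 (0.989). Those most like Klrc1 were Cmah, Ppp1r12a and Riok1 (r = 0.992 to 0.993), and those most like Klrk1 were Yes1 (0.997), Man2b1 (0.991) and Dock2 (0.991). Klrg1 was most like Ggact (0.991), Skap1 (0.977) and Usp46 (0.976).

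Other lectin receptors of the NK gene complex were split. Of 11 tested, 5 fell, 0 rose and 6 did not pass in NKDxIL15tg spleen against IL15tg spleen, where 7.04% of all tested probe sets fell and 6.75% rose. The median was -0.04 (0.02 over all 12925 tested genes). In bone marrow against IL15tg spleen 5 fell and 1 rose (11.5% and 9.79% over all tested probe sets), with a median of -0.21 (0.12 over all genes). The one that rose was Clec7a, which encodes the fungal receptor dectin-1 of myeloid cells (0.97 ± 0.27, adjusted p = 0.0317, or 0.0426 without bone marrow replicate 3). Klre1, whose product pairs with other lectin chains in mouse NK cells, averaged 778 ± 475 in NKDxIL15tg bone marrow, 953 ± 419 in NKDxIL15tg spleen and 4217 ± 44.4 in IL15tg spleen (SD, n = 3). It fell by 2.26 ± 0.46 in NKDxIL15tg spleen (adjusted p = 0.0126), with replicate 2 lowest in both NKDxIL15tg groups, as for Klrd1. Also lower in NKDxIL15tg spleen were Klra8, the activating receptor Ly49H (-2.31 ± 0.49), Klrb1a (-2.01 ± 0.15), Klra5 (-1.96 ± 0.37) and Klrb1b (-1.24 ± 0.25), an inhibitory receptor of the NKR-P1 family. Of the 4 other tested probe sets of Klrb1b, 2 passed in the same direction. Klrb1f, at -0.05 ± 0.15 (adjusted p = 0.916), and Klra7, at 0.12 ± 0.12 (adjusted p = 0.580), did not pass. Klra genes are close paralogs whose probes can cross-react.

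On the other side of Klre1, the gene next to it was Gabarapl1, an autophagy gene, which did not pass (0.36 ± 0.18 in NKDxIL15tg spleen against IL15tg spleen, adjusted p = 0.228). The next genes beyond Klrc1 that had a probe set of their own were Klra17, below the filter with means of 32.4, 29.2 and 35.1 in NKDxIL15tg bone marrow, NKDxIL15tg spleen and IL15tg spleen, and Klra5. Genes that were lowered and genes that did not pass thus stood side by side in this stretch of chromosome 6.

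Among the signalling partners of the receptors, Hcst fell and Ptpn11 rose. Of 17 adaptor and signalling genes, 16 had a probe set and all 16 passed the filter; 1 rose, 1 fell and 14 did not pass in NKDxIL15tg spleen against IL15tg spleen, near the 6.75% and 7.04% over all tested probe sets, with a median of -0.02. Hcst, which encodes DAP10, the adaptor of NKG2D, averaged 182 ± 29.1 in NKDxIL15tg bone marrow, 159 ± 16.7 in NKDxIL15tg spleen and 249 ± 17.9 in IL15tg spleen (SD, n = 3). It fell by 0.65 ± 0.14 in NKDxIL15tg spleen (adjusted p = 0.0176) and fell by 0.46 ± 0.14 in bone marrow (adjusted p = 0.0461). Tyrobp, which encodes DAP12, did not pass (-0.16 ± 0.09, adjusted p = 0.320), at 5581 ± 69.9, 5812 ± 286 and 6483 ± 247 in the same order of groups. Ptpn11, which encodes SHP-2, a phosphatase that inhibitory motifs recruit, rose by 0.79 ± 0.17 in NKDxIL15tg spleen (adjusted p = 0.0156), though 0 of its 2 other tested probe sets passed. Of 13 listed ligands of the receptors, 5 had a probe set of their own (Ulbp1, H60c, Cdh1, Cdh2 and Cdh4) and 0 reached the filter, with group means of 21.3 to 67.5.

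Transcription factors of NK cells that bear on receptor expression moved in both directions. Of 15 listed, 14 were tested; 6 fell, 2 rose and 6 did not pass in NKDxIL15tg spleen against IL15tg spleen, with a median of -0.52 against 0.02 over all tested genes. Over all tested probe sets 7.04% fell and 6.75% rose there. In bone marrow against IL15tg spleen 8 fell and 2 rose, where 11.5% of all tested probe sets fell and 9.79% rose. Zeb2, which acts late in NK cell maturation, fell by 2.78 ± 0.32 (adjusted p = 0.000754), and its 2 other tested probe sets passed too. Tbx21, which encodes T-bet and is needed for terminal maturation, fell by 1.29 ± 0.25 (adjusted p = 0.0113). Nfil3, a factor of NK cell commitment, fell by 1.12 ± 0.27, and Irf8 fell by 1.06 ± 0.15. Tox, a factor of NK cell development, rose by 1.08 ± 0.15. Eomes (0.35 ± 0.13, adjusted p = 0.122) and Runx3 (0.46 ± 0.23, adjusted p = 0.240) did not pass. Of the 14 tested, 8 were, like Klrd1, lowest in replicate 2 of both NKDxIL15tg groups and 2 were highest there. Over all tested probe sets the shares were 17.2% and 11.4%. The 8 included Zeb2 and Tbx21, at 122 and 418 in bone marrow and 151 and 701 in NKDxIL15tg spleen. They also included Tox, which rose, and Eomes, which did not pass.

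Genes that define NK cells were also examined. Of 10 tested, 1 rose, 0 fell and 9 did not pass in NKDxIL15tg spleen against IL15tg spleen, near the 6.75% and 7.04% over all tested probe sets, with a median of -0.16. In bone marrow against IL15tg spleen Cd160 rose and Prf1, which encodes perforin, fell (-0.86 ± 0.17). Ncr1, which encodes the activating receptor NKp46, averaged 1156 ± 341, 1078 ± 58.8 and 1642 ± 173 in NKDxIL15tg bone marrow, NKDxIL15tg spleen and IL15tg spleen. It did not pass against IL15tg spleen in NKDxIL15tg spleen (-0.60 ± 0.21, adjusted p = 0.0890) or bone marrow (-0.55 ± 0.21, adjusted p = 0.0907). In limma without bone marrow replicate 3, Ncr1 was called lower in both (adjusted p = 0.0256 and 0.0151). The genes that fell were then 1 of 10 in spleen and 2 of 10 in bone marrow. That fit called 5483 and 6342 of 27022 tested probe sets in either direction, against 3725 and 5764 with all arrays. Cd160, a receptor of the immunoglobulin family, rose by 0.62 ± 0.15 in NKDxIL15tg spleen (adjusted p = 0.0292), with 0 of 3 other tested probe sets passing. Among genes of other cells in the same comparison, 7 of 15 granulocyte and monocyte genes, 3 of 8 erythroid genes and 2 of 10 T cell genes rose, Cd28 (2.10 ± 0.16) and Trat1 (0.97 ± 0.23), and 5 of 9 B cell genes fell. Of 7 genes of type 2 innate lymphoid cells, mast cells and basophils, some of which also express Klrg1, Kit fell (-2.19 ± 0.15) and the other 6 did not pass. Kit lay below the filter on all 6 NKDxIL15tg arrays (27.4 to 39.2). It passed the filter through its IL15tg level (132 to 152), so it had to differ.

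**Figure D4:**
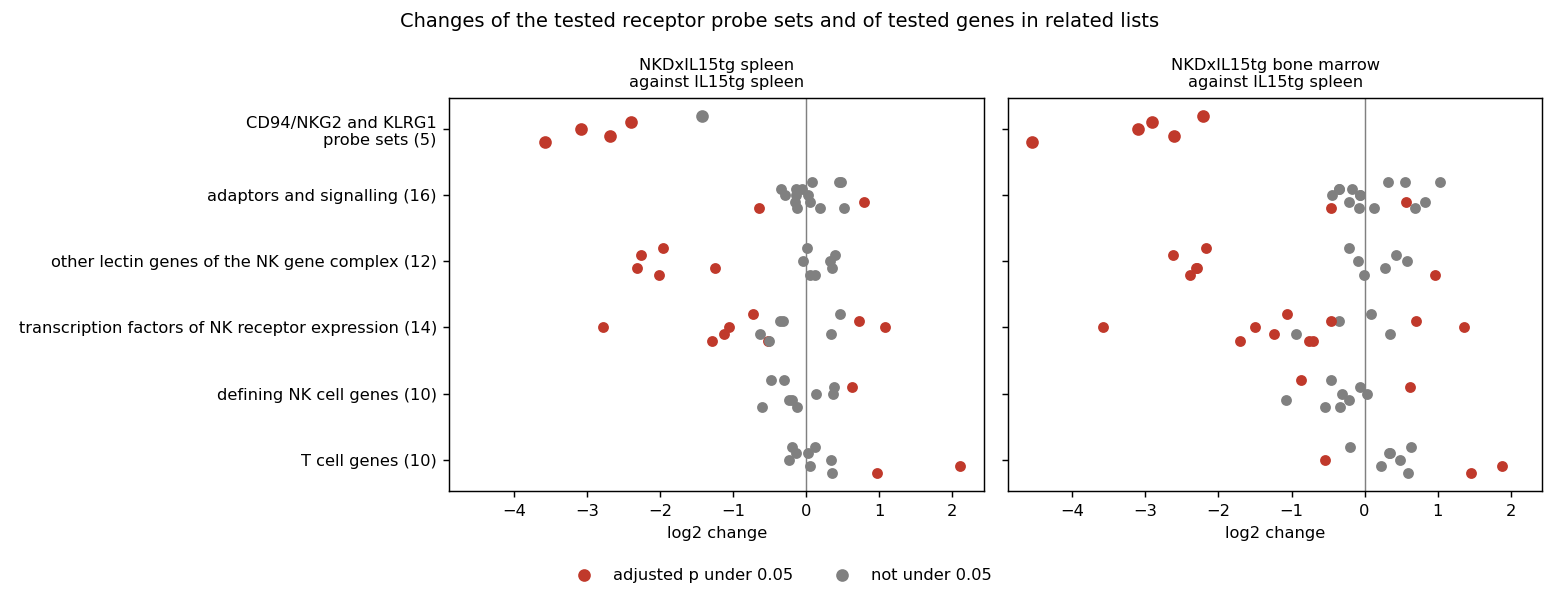
Log2 change of the 5 tested receptor probe sets (top row) and of the tested genes in 5 related lists, each gene shown by its brightest probe set (Gabarapl1 is among the 12 points of the lectin list), for both organs of NKDxIL15tg mice against IL15tg spleen. Red points passed (adjusted p under 0.05). The receptors lie between -3.58 and -1.43 on the left, while adaptors lie between -0.65 and 0.79 there.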

How the data were processed

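Total RNA (150 ng per sample) was extracted with Trizol and amplified from the 3' end in 2 cycles, then labelled with biotin, per the labels' protocols. Probe sets far from the 3' end can lose signal in this way. The values the authors deposited are linear intensities, 1 for each probe set of an array. Summarisation and scaling are not given in the sources used here.

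Values were used as deposited, set to a floor of 16 and taken to log2. Control probe sets (64) did not enter the tests. Probe sets at or above the 40th percentile of mean log2 intensity (27022) were tested with limma 3.58.1 in R 4.3.3 (3 group means, lmFit and eBayes, 9 arrays, 2-sided), with Benjamini-Hochberg adjustment over all of them and a threshold of 0.05. Errors of changes are standard errors. The fit was tested on simulated data. Promoters were aligned with Biopython 1.88.

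Genes were named from the platform annotation, and a listed gene was represented by its brightest probe set with 1 symbol. The list of lectin genes also held Gabarapl1, which is no lectin and is left out of its counts. From each list the genes with the largest changes among those that passed were named, with Hcst, Tyrobp, Tbx21, Eomes, Zeb2, Ncr1 and Cd3e in any case and, after their values were seen, Klrb1b, Klrb1f, Klra7, Irf8, Runx3, Gabarapl1, Klra17, Cd3d, Cd3g, Car2, Kit and Gzmb. The members and lists were chosen with earlier results of these data known. The labels call replicates biological, but not which animals they come from. Deviations of same-numbered arrays from their group means were correlated over probe sets between NKDxIL15tg bone marrow and spleen (r = 0.23 to 0.38). Arrays of other numbers gave r = -0.35 to -0.01 there. Between NKDxIL15tg and IL15tg spleen r was 0.12 to 0.16 for the same number and -0.32 to 0.16 for other numbers. Between bone marrow and IL15tg spleen it was -0.02 to 0.24 and -0.37 to 0.27. Same-numbered arrays thus stood apart from the others only between the NKDxIL15tg groups. The number of arrays limits the precision.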

Additional observations from a re-analysis of the deposited data

How the results depend on the processing

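The calls of Klrc1 (1425005_at), the shared Klrc3 and Klrc2 probe set, Klrk1 and Klrd1 against IL15tg spleen held under every alternative that was run: scaling to the 75th percentile, quantile normalization, floors of 64 and 1, no filter, a fit on the 2 compared groups, array weights, the replicate block and leaving out each array. Klrg1 changed sides. In NKDxIL15tg spleen it passed with the 2 compared groups alone (adjusted p = 0.0172) and with array weights (0.0232), but not with the replicate block (0.0999). In bone marrow against IL15tg spleen it did not pass without a filter (0.0785), with a floor of 64 (0.0829) or with the 2 compared groups alone (0.0541). The cause was not tested. The shared Klrc3 and Klrc2 probe set was at -1.54 with a floor of 64 in both comparisons, since all its NKDxIL15tg values lie under that floor.

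Without a filter, 7 receptor probe sets were called in NKDxIL15tg spleen against IL15tg spleen, since 3 more were tested. Over all probe sets, that comparison gave 5685 calls with array weights and 1809 to 5483 without single arrays (lowest without IL15tg replicate 1, highest without bone marrow replicate 3), against 3725. Bone marrow against IL15tg spleen gave 3089 to 6342, with the same arrays at the ends, against 5764. Bone marrow against spleen of NKDxIL15tg mice gave 2 calls without a filter, 4 with a floor of 64, 23 with the replicate block and 1 to 15 without single arrays (1 without NKDxIL15tg spleen replicate 1), against 14. The replicate block changed no call of a receptor. The dim Klrc2 and Klrc3 probe sets lie near the floor, which limits their sizes.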
